A study of Homo sapiens with 54 samples.

Results

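The chemokine-low, non-dividing macrophages of day 12 were 320 cells of 1 single-cell library made from H1 cells, a human embryonic stem cell line, that had been differentiated towards macrophages in a 3D porous microscaffold. The day 12 library held 8159 cell barcodes, of which 7961 passed the filters of at least 1000 UMIs (molecules counted once each), at least 500 genes and under 15% mitochondrial counts; the 3 single-cell libraries of days 7, 9 and 12 together held 26455 such cells. Macrophages were the 2337 cells with 5 or more UMIs summed over CD14, CD163, C1QA, C1QB and C1QC. Of these, 962 had fewer than 3 UMIs of MKI67 and TOP2A and were taken as non-dividing, and they were ranked by the share of their UMIs that came from CCL3, CCL4 and IL1B. The 320 lowest-ranked cells are described here, against the 5624 non-macrophage cells of the same library and against the 320 highest-ranked, chemokine-high macrophages; 322 cells lay between. The cells were thus selected on measured values, the counts of the genes just named, so the levels of these genes and every contrast between populations of these cells are descriptions without a test.

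The series compared macrophages grown from H1 cells in the 3D scaffold with macrophages grown in 2D culture. Beside the single-cell libraries, 32 bulk RNA libraries were deposited, and the groups used here were 3D cultures at day 12 (4 libraries), day 16, day 19 and day 23 (3 libraries each, those with FBS in their labels not being used), and 2D cultures at day 12 (4 libraries). All of these were H1 cells, and the labels name no genetic change or agent for them. The labels do not say whether libraries of a group came from separate cultures, so p-values measure the spread between these libraries only.

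Macrophages that live in tissues for long periods are commonly recognised by receptors for uptake, such as the mannose receptor MRC1, the haptoglobin-haemoglobin scavenger receptor CD163 and its relative CD163L1, the hyaluronan receptor LYVE1, the folate receptor FOLR2 and the kinase MERTK, which binds dying cells through bridging proteins. CCL3 and CCL4 are chemokines that attract monocytes and lymphocytes, and IL1B is a cytokine of inflammation; activated macrophages make all of them. The sequences before the annotated starts of genes from both ends of this contrast are shown first, because CCL3 and IL1B defined the ranking while MERTK and CD163L1 were higher at its low end.

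The sequences are the 250 bases before the start in RefSeq (GRCh38.p14), written along the gene's own strand, with matches on either strand in capitals. They are CCL3 at chr17:36090144-36090393 (minus strand), IL1B at chr2:112836780-112837029 (minus strand), MERTK at chr2:111898357-111898606 (plus strand) and CD163L1 at chr12:7444154-7444403 (minus strand).
CCL3: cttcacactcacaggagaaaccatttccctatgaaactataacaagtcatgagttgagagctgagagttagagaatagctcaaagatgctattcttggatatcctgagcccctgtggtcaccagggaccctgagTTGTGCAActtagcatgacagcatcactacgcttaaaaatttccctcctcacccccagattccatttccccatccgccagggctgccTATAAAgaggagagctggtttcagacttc
IL1B: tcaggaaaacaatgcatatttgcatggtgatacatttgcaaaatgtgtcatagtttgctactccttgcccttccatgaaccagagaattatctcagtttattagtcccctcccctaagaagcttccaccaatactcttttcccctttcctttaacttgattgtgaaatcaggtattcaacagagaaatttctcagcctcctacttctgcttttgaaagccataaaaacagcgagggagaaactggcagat
MERTK: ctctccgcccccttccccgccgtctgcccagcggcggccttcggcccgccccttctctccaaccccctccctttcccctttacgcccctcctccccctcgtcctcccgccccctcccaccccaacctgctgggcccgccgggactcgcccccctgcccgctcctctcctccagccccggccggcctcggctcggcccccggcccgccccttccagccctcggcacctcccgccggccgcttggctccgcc
CD163L1: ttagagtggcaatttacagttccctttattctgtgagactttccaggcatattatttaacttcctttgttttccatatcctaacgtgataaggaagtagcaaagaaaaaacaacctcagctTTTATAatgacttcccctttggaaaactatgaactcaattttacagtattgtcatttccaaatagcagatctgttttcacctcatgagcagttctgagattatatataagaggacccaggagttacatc

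The windows differed most in base composition, with G or C at 78.8% of bases before MERTK, against 47.2% before CCL3, 40.0% before IL1B and 35.2% before CD163L1. The CCL3 window held 1 C/EBP type match (TTGNNCAA), which 4.90% of 35116 RefSeq windows of this length hold. A TATA box match (TATAAA), found in 10.7% of all windows, occurred once before CCL3 and once, on the opposite strand, before CD163L1. None of the 4 windows held the AP-1 letters TGANTCA, which 6.57% of all windows hold. These are matches of letters in these windows only.

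The cells fitted their label as macrophages, with some cells carrying RNA of other cell types as described below. All levels are pooled counts-per-million values (CPM, with UMIs as the counts) with exact 95% Poisson intervals, which cover counting error only. CD14, a receptor for bacterial lipid, stood at 521 CPM in the chemokine-low cells, against 872 CPM in chemokine-high macrophages and 8.54 CPM in non-macrophage cells. CD163 stood at 252 CPM, against 351 CPM in chemokine-high and 4.98 CPM in non-macrophage cells. MRC1, which the selection did not use, stood at 642 CPM (624 to 659), against 615 CPM (597 to 633) in chemokine-high and 13.8 CPM in non-macrophage cells. CD163L1, also outside the selection, stood at 140 CPM (132 to 148), against 81.5 CPM (75.1 to 88.3) in chemokine-high and 3.65 CPM in non-macrophage cells. The excess of CD14 and CD163 over non-macrophage cells follows from the selection; MRC1 and CD163L1 were far above the non-macrophage level without being used in it, and MRC1 differed little between the ends of the ranking.

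With every cell thinned to 3000 UMIs (6 chemokine-low, 3 chemokine-high and 191 non-macrophage cells were shallower and left out), 68.5% of chemokine-low cells had an MRC1 UMI (exact binomial interval 63.0 to 73.6%), against 3.29% of non-macrophage cells. Without thinning the shares were 86.9% of chemokine-low cells and 12.4% of non-macrophage cells, at median depths of 23229 and 14065.5 UMIs. The share of chemokine-low cells with a CD163L1 UMI was 18.5% after thinning, against 14.2% of chemokine-high and 0.920% of non-macrophage cells. Read against the non-macrophage shares as background, the chemokine-low cells were above it for both genes.

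The chemokines were low but not absent. CCL3 stood at 241 CPM in the chemokine-low cells, against 4310 CPM in the chemokine-high and 56.9 CPM in the non-macrophage cells. CCL4 stood at 150 CPM, against 4114 CPM in the chemokine-high and 54.3 CPM in the non-macrophage cells. IL1B stood at 344 CPM, against 3507 CPM in the chemokine-high and 65.5 CPM in the non-macrophage cells. After thinning, 38.9% of chemokine-low cells had a CCL3 UMI, against 99.7% of chemokine-high cells and 10.4% of non-macrophage cells. Only 15 of the 320 cells had no UMI of the 3 genes at all, and the median cell had 528 CPM of them. The last cell inside the boundary had 2499 CPM and the first outside had 2513 CPM, and 16 members lay within 10% below the boundary, so the ranking cuts a continuous range of levels, with no gap at the boundary.

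**Figure D1:**
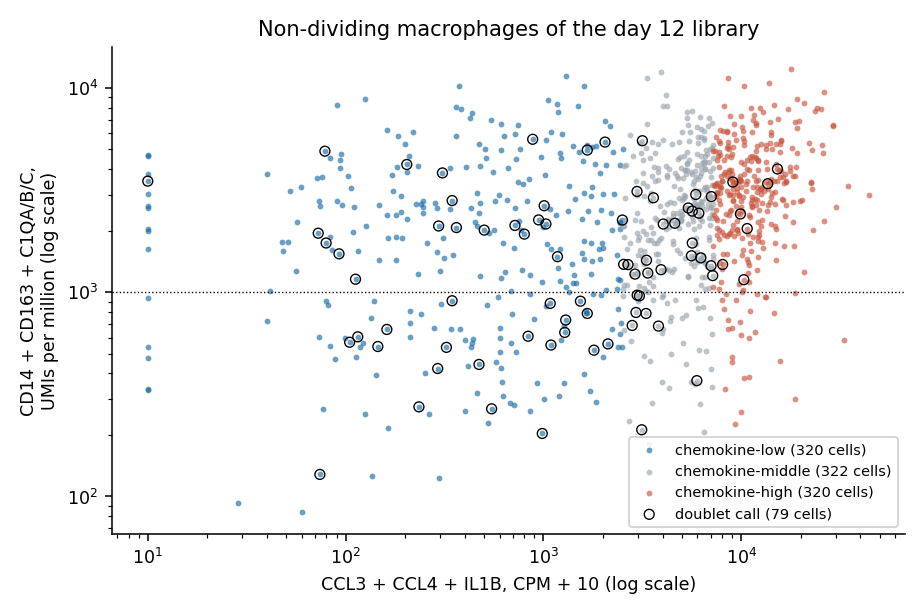
Each point is 1 of the 962 non-dividing macrophages of day 12; the horizontal axis is CCL3 + CCL4 + IL1B in CPM plus 10 and the vertical axis is CD14 + CD163 + C1QA + C1QB + C1QC in CPM, both on log scales. Colours mark chemokine-low, middle and high cells, open circles mark doublet calls, and the dotted line marks 1000 CPM; more chemokine-low than chemokine-high points lie under that line.

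Depth did not separate the ends of the ranking: the median was 23229 UMIs in chemokine-low and 22901.5 in chemokine-high macrophages, with 4.88% and 4.73% mitochondrial counts. The selecting genes did differ. The median cell had 40.5 UMIs of the 5 selecting genes in the chemokine-low population, against 72 in the chemokine-high one, and 58 of the 320 chemokine-low cells had only 5 to 9. Scrublet, a caller that looks for droplets holding 2 cells, marked 43 chemokine-low cells (13.4%, exact binomial interval 9.90 to 17.7%), against 7 chemokine-high cells (2.19%, 0.884 to 4.45%); it marked 369 of the 7961 cells (4.64%) in all. The rule keeps these cells, so the main values include them. A cleaner set, chosen after the data were seen, kept only cells with at least 1000 CPM of the 5 selecting genes and no doublet call and ranked the remaining 735 non-dividing macrophages again. Its 245 chemokine-low cells shared 195 cells with the 320 (60.9% of the 320 and 79.6% of the 245), and its values are given beside many of the results below.

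Against the non-macrophage cells, 1026 of 8604 genes with at least 20 CPM in either population (11.9%) were 2-fold or more higher in the chemokine-low cells and 1458 (16.9%) were 2-fold or more lower; in the cleaner set these were 1140 (13.2%) and 1718 (19.9%) of 8640 genes. The complement genes C1QA (623 CPM against 7.76 CPM in non-macrophage cells), C1QC and C1QB and the receptor CD14 had the largest folds, and all were selecting genes. Among the others, FOLR2 stood at 115 CPM, against 1.97 CPM in non-macrophage cells (58.4-fold), and MS4A7, a membrane protein of macrophages, at 200 CPM, against 3.54 CPM (56.7-fold). AGR2, which encodes an endoplasmic reticulum protein better known from secretory epithelia, stood at 105 CPM, against 1.73 CPM (60.8-fold). CMKLR1, the chemerin receptor, stood at 75.5 CPM, against 1.48 CPM, and MRC1 was 46.5-fold higher. CCL13, a monocyte chemokine, stood at 65.3 CPM, against 1.33 CPM, but 10 cells held 73.3% of its UMIs. SPP1, which encodes the secreted protein osteopontin, stood at 16409 CPM, against 350 CPM in non-macrophage cells. With mitochondrial and ribosomal protein genes left out, only FTL and MALAT1 were more abundant in the chemokine-low cells.

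The genes furthest below the non-macrophage level belonged to other blood lineages and to dividing cells. HBM and HBA2, globin genes of red cells, stood at 4.54 and 79.8 CPM in the chemokine-low cells, against 127 and 862 CPM in non-macrophage cells. The granule genes MPO, PRTN3, DEFA3 and DEFA4 were 10.4-fold to 11.1-fold lower, and EPX, the eosinophil peroxidase, was 10.1-fold lower. MS4A3, a marker of granulocyte precursors, was 11.5-fold lower. CENPF and DIAPH3, which act in cell division, stood at 8.47 and 7.85 CPM, against 97.7 and 86.2 CPM in non-macrophage cells. The chemokine-low cells were chosen for few UMIs of MKI67 and TOP2A, whereas the non-macrophage cells were not filtered on these genes. Low levels of division genes in this contrast thus follow at least in part from the selection. SLC24A3, an ion exchanger, was 12.9-fold lower, and 1 further gene of the 12 carries only a genomic clone name.

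Of 21 general macrophage genes at 20 CPM or more, 20 were 2-fold or more higher than in non-macrophage cells; TYROBP and FCER1G, adaptors of activating receptors, stood at 1108 and 894 CPM in the chemokine-low cells, against 116 and 97.7 CPM. AIF1 stood at 1028 CPM, against 156 CPM, and the integrin chain ITGB2 at 720 CPM, against 77.7 CPM. Of 29 lysosome genes, 20 were higher and none lower by 2-fold, led by the cathepsin CTSB at 1637 CPM, against 109 CPM, and CTSC at 956 CPM, against 144 CPM. The median fold was 7.07 over the general macrophage list. Monocyte type genes did not follow: 2 of 13 were higher and 4 lower, beside 11.9% and 16.9% of all genes. S100A9, a calcium-binding alarmin, stood at 1921 CPM in the chemokine-low cells and 1561 CPM in non-macrophage cells, and S100A8 at 241 CPM, against 907 CPM. Of the HLA class II genes, which present antigen, only the invariant chain CD74 reached 20 CPM, at 91.9 CPM, against 17.3 CPM. The iron storage genes FTL and FTH1 stood at 29447 and 7552 CPM, against 7219 and 1712 CPM in non-macrophage cells.

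Of the 36 resident type genes, 30 reached 20 CPM in either population; 24 were 2-fold or more higher than in non-macrophage cells and 1, SLC40A1, the iron exporter ferroportin, was lower (20.7 CPM, against 65.8 CPM). The median fold over the 30 was 8.28; in the cleaner set 23 of 31 were higher and 3 lower. The most abundant were NRP1, a co-receptor of growth factors, at 845 CPM, MRC1 at 642 CPM, the transcription factor MAF at 586 CPM and the lipid scavenger CD36 at 474 CPM, against 170, 13.8, 96.3 and 22.6 CPM in non-macrophage cells. The complement receptor VSIG4 stood at 255 CPM, against 5.55 CPM, the clotting factor chain F13A1 at 250 CPM, against 23.3 CPM, and the scavenger receptor STAB1 at 219 CPM, against 14.5 CPM. TREM2, a lipid-sensing receptor of macrophages, stood at 191 CPM, against 4.23 CPM, and LYVE1 at 98.8 CPM, against 4.97 CPM. The phosphatidylserine receptor TIMD4 stood at 33.5 CPM, against 0.559 CPM, and the fractalkine receptor CX3CR1 at 44.9 CPM, against 3.34 CPM. Among resident genes that did not follow, the apolipoprotein APOE stood at 326 CPM, against 490 CPM, SELENOP at 76.4 CPM, against 104 CPM, and the transcription regulator ID3 at 86.9 CPM, against 136 CPM. CD209 had 6 UMIs and CD5L 5 UMIs in all 320 cells, and SPIC had 0, which allows a level of up to 0.368 CPM.

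**Figure D2:**
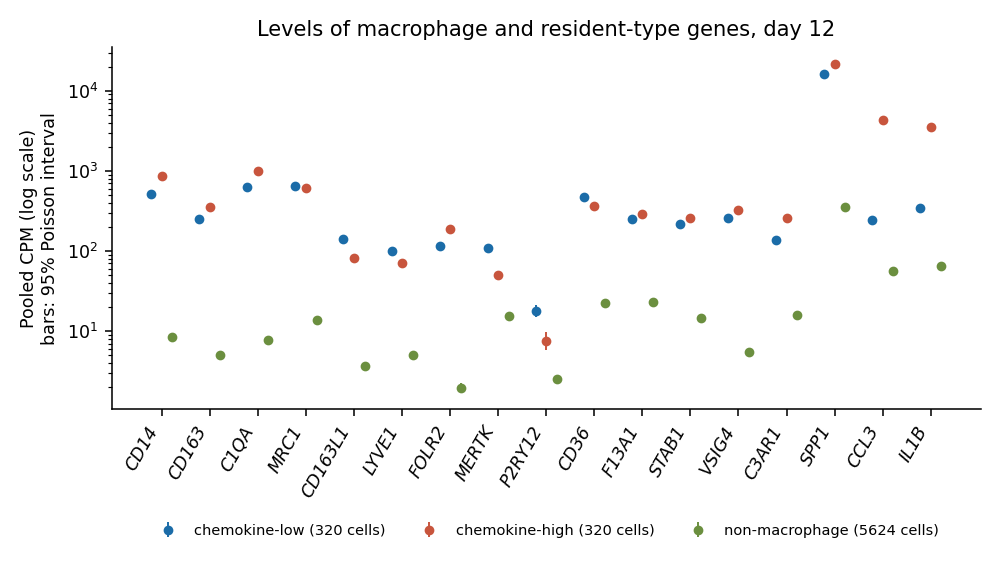
Pooled CPM on a log scale with exact 95% Poisson intervals for 17 genes in chemokine-low macrophages (blue), chemokine-high macrophages (red) and non-macrophage cells (green) of day 12. The 2 macrophage populations lie close together for most resident type genes and far apart for CCL3 and IL1B; both lie above the non-macrophage cells for every gene drawn.

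Set against the chemokine-high macrophages, 582 of 7367 genes (7.9%) were 2-fold or more higher in the chemokine-low cells and 270 (3.66%) were 2-fold or more lower. Other inflammatory genes, which the ranking did not count, were low together with the ranked ones. All 30 of the other inflammatory genes at 20 CPM or more were 2-fold or more lower, with a median of 0.17 of the chemokine-high level, and 27 of 30 were in the cleaner set. CCL20, IL6 and CXCL2 stood at 22.6, 16.6 and 17.2 CPM in the chemokine-low cells, against 436, 244 and 250 CPM in the chemokine-high cells. IL1A, TNF and CXCL3 stood at 31.7, 26.5 and 15.6 CPM, against 404, 298 and 192 CPM. CCL3L1 and CCL4L2 were 35.7-fold and 34.1-fold lower, but they are near-identical copies of CCL3 and CCL4 and their reads may have been divided between the copies. Such copies are not separate from the ranked genes. The counts and sums of the other inflammatory list were not repeated without copies. TNIP3, an inhibitor of inflammatory signalling, and ELOVL7, a fatty acid elongase, were 12.6-fold and 10.9-fold lower.

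The most abundant inflammatory transcripts kept a sizeable level at the low end. CCL2, which attracts monocytes, stood at 1147 CPM in the chemokine-low cells, against 2391 CPM in the chemokine-high cells, and SOD2 at 527 CPM, against 1674 CPM. CXCL8, which attracts neutrophils, stood at 393 CPM, against 2927 CPM, and NFKBIA, the inhibitor of NF-kB, at 269 CPM, against 1259 CPM. MARCO, a scavenger receptor, was 5.53-fold lower at 86.5 CPM, against 478 CPM, and 102 of the 320 cells had a UMI of it.

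Immediate early genes, which are induced within minutes of many stimuli, were lower as well: 16 of 22 were 2-fold or more lower and their summed level was 2827 CPM in the chemokine-low cells, against 7029 CPM in the chemokine-high and 3359 CPM in the non-macrophage cells. The 4 most abundant were lower by differing amounts. JUNB stood at 359 CPM, against 815 CPM in chemokine-high cells, KLF6 at 216 CPM, against 635 CPM, FOS at 376 CPM, against 523 CPM, and JUND at 285 CPM, against 397 CPM. In the cleaner set 12 of 22 were 2-fold or more lower. Of the 9 heat shock genes, 6 reached 20 CPM and none of these differed by 2-fold (1326 CPM in chemokine-low cells, against 1368 CPM in chemokine-high cells, over all 9); in the cleaner set 1 of 6 was 2-fold lower.

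Most resident type genes were level between the ends of the ranking, with a median ratio of 0.97 over 30 genes. Of these 30, 2 were 2-fold or more higher in the chemokine-low cells, near the 7.9% of all genes that were. In the cleaner set 4 of 30 were, beside 3.71% of all genes. MERTK was 1 of the 2 by the rule. It stood at 110 CPM (103 to 118) in chemokine-low cells, against 50.9 CPM (45.8 to 56.3) in chemokine-high cells, a ratio of 2.16. It was detected in 226 of the 320 cells. After thinning, 22.9% of chemokine-low cells had a MERTK UMI, against 12.3% of chemokine-high and 4.18% of non-macrophage cells. The ratio stayed between 1.95 and 2.70 under all 15 settings computed. P2RY12, a purine receptor known from microglia, stood at 17.8 CPM, against 7.60 CPM, and IGF1, a growth factor, at 11.7 CPM, against 5.70 CPM. Both lay under the 20 CPM limit, and 10 cells held 63.2% of the IGF1 UMIs. SLC40A1 was the other resident gene past 2-fold, at 20.7 CPM, against 8.95 CPM, below its level in the non-macrophage cells.

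CD163L1 was 1.71-fold higher in the chemokine-low cells, LYVE1 1.38-fold, the growth factor PDGFC 1.38-fold and CD36 1.29-fold. All 4 stayed above the chemokine-high level under the 15 settings, over ranges of 1.27 to 3.14 for CD163L1, 1.09 to 2.25 for LYVE1, 1.19 to 1.90 for PDGFC and 1.12 to 1.59 for CD36. In the cleaner set CD163L1 stood at 180 CPM (169 to 191), against 73.6 CPM (66.7 to 81.1), LYVE1 at 152 CPM (142 to 162), against 69.9 CPM (63.2 to 77.2), and MERTK at 132 CPM, against 51.2 CPM. MRC1 in that set stood at 831 CPM, against 594 CPM, and the median over the resident list was 1.21. Within the population CD163L1 and LYVE1 were unevenly spread. For CD163L1, 167 cells had a UMI and 10 cells held 37.9% of its UMIs. For LYVE1, 112 cells had a UMI and 10 cells held 40.4%. Without thinning, 52.2% of chemokine-low and 53.1% of chemokine-high cells had a CD163L1 UMI. For LYVE1 these shares were 35.0% and 39.4%, and for CD36 86.9% and 88.4%. After thinning they were 18.5% and 14.2% for CD163L1, 16.9% and 15.5% for LYVE1, and 57.6% and 51.4% for CD36. The thinned intervals of the ends overlapped for each of these genes.

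Other resident genes ran the opposite way. C3AR1, the receptor of complement fragment C3a, stood at 138 CPM, against 258 CPM in the chemokine-high cells. FOLR2 stood at 115 CPM, against 188 CPM. Both were below the chemokine-high level under each of the 15 settings, with ratios of 0.48 to 0.73 for C3AR1 and 0.55 to 0.96 for FOLR2. Genes of the resident list thus lay on both sides of the chemokine-high level.

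**Figure D3:**
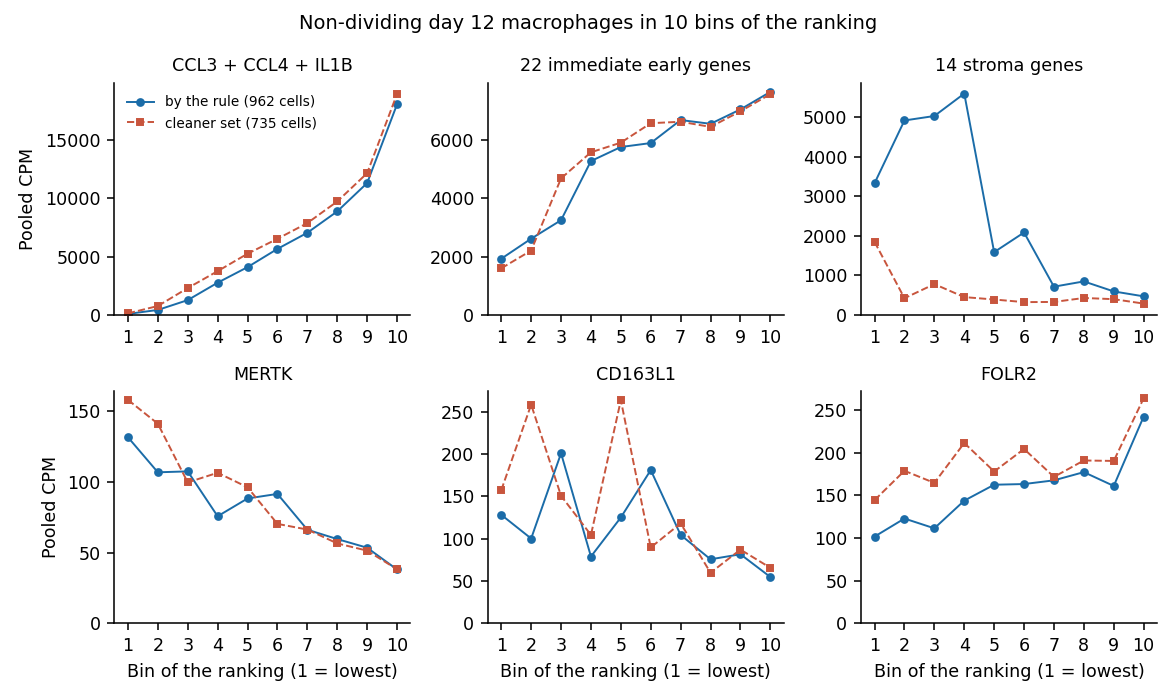
Pooled CPM in 10 equal bins of the chemokine ranking (bin 1 lowest) for the ranked genes, 22 immediate early genes, 14 stroma genes, MERTK, CD163L1 and FOLR2; blue circles are all 962 non-dividing macrophages and red squares the 735 cells of the cleaner set. MERTK falls along the ranking in both sets, while the stroma level of the low bins is much smaller in the cleaner set.

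Along 10 bins of the ranking, MERTK stood at 131 CPM in the lowest bin and 38.0 CPM in the highest, with a rise between bins 4 and 6 on the way. CD163L1 varied without a smooth order, at 128, 100 and 201 CPM in the 3 lowest bins, 181 CPM in bin 6 and 54.7 CPM in the highest. FOLR2 stood at 102 CPM in the lowest bin and 242 CPM in the highest. The other inflammatory genes summed to 2406 CPM in the lowest bin and 27152 CPM in the highest. In the lowest bin, the ranked chemokines summed to 92.9 CPM, below the pooled 177 CPM of the non-macrophage cells. All bins come from 1 library, and the ranked genes themselves are part of each cell's total.

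The chemokine-low cells also differed among themselves by how much macrophage RNA they held. In the 58 cells with 5 to 9 selecting UMIs, CD163L1 and LYVE1 both stood at 7.00 CPM and MRC1 at 151 CPM, whereas in the 61 cells with 100 or more CD163L1 stood at 322 CPM, LYVE1 at 178 CPM and MRC1 at 930 CPM. The class of 100 or more was also deeper, with a median of 29175 UMIs, against 13223 in the class of 5 to 9, and held less RNA of other types: stroma genes summed to 2964 CPM, against 9282 CPM, erythroid genes to 140 CPM, against 4487 CPM, and megakaryocyte genes to 17.2 CPM, against 1202 CPM. MERTK stood at 130 CPM in the class of 100 or more and at 55.01 CPM in the class of 5 to 9. The chemokines did not follow this order, at 552 CPM in the class of 5 to 9, 928 CPM in the 78 cells of 20 to 49 and 657 CPM in the class of 100 or more. SPP1 stood highest, at 24008 CPM, in the 44 cells of 10 to 19, and at 11880 CPM in the class of 100 or more.

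RNA of several other cell types moved with the low end of the ranking. All 11 stroma genes at 20 CPM or more, all 6 erythroid, 2 megakaryocyte, 4 granulocyte and 3 mast, basophil or eosinophil genes were 2-fold or more higher in the chemokine-low cells than in the chemokine-high cells. The 12 largest folds were of this kind or of genes abundant in non-macrophage cells: HBG2 (361 CPM, against 18.4 CPM) and HBZ (882 CPM, against 66.9 CPM) encode globins, PF4 (70.3 CPM, against 3.66 CPM) and PPBP (112 CPM, against 7.19 CPM) platelet chemokines, KDR (56.1 CPM, against 3.93 CPM) an endothelial receptor and TAGLN (88.0 CPM, against 6.78 CPM) an actin-binding protein of smooth muscle. KCNIP4, LDB2, DSP, SOX6, the imprinted RNA H19 and PEG10 made up the rest, at 12.0-fold to 18.1-fold, and all 12 were higher still in the non-macrophage cells. Stroma genes summed to 4451 CPM, against 619 CPM in chemokine-high and 17816 CPM in non-macrophage cells. COL3A1 stood at 1212 CPM, COL1A1 at 1139 CPM and COL1A2 at 799 CPM, against 186, 150 and 114 CPM in chemokine-high cells. Endothelial genes moved less: 1 of 4 was 2-fold or more higher, and they summed to 401 CPM, against 276 CPM in chemokine-high cells. In the cleaner set the endothelial sums were 243 CPM, against 271 CPM. Progenitor genes summed to 432 CPM, against 615 CPM in chemokine-high cells, though 1 of 2 tested was 2-fold or more higher.

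The erythroid, megakaryocyte, granulocyte and mast, basophil or eosinophil sums came from few cells, while stroma RNA was spread more widely. The 10 cells with the most held 91.3% of the erythroid, 89.7% of the megakaryocyte, 88.4% of the mast, basophil or eosinophil and 82.6% of the granulocyte UMIs, and 38.9% of the stroma UMIs. The median cell had 400 CPM of the 14 stroma genes in the chemokine-low population, against 305 CPM in the chemokine-high one, and 0 CPM of the 10 megakaryocyte genes in both. In all, 75 chemokine-low cells (23.4%) had over 5000 CPM of at least 1 of the other cell type lists, against 5 chemokine-high cells (1.56%), and 61 chemokine-low cells were over that limit for stroma genes. After thinning, 19.7% of chemokine-low, 24.0% of chemokine-high and 25.03% of non-macrophage cells had an HBZ UMI. Lymphoid markers summed to 133 CPM, against 146 CPM in chemokine-high cells, and endoderm markers to 6.87 CPM, against 7.87 CPM.

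**Figure D4:**
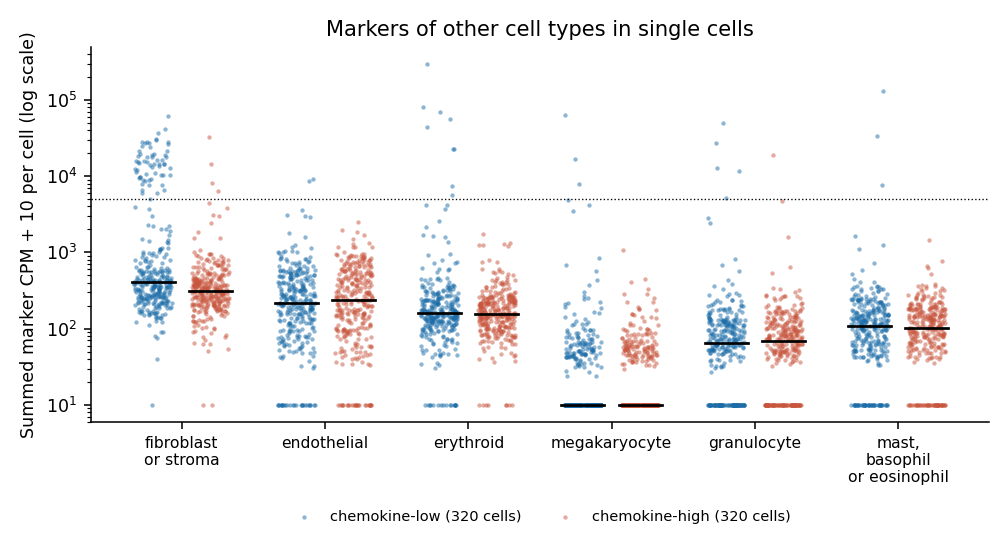
Summed marker CPM plus 10 (log scale) of 6 other cell types in each of 320 chemokine-low (blue) and 320 chemokine-high (red) macrophages; black bars are medians and the dotted line marks 5000 CPM. The medians for stroma genes are 400 and 305 CPM, and 61 chemokine-low cells against 4 chemokine-high cells lie above the line for stroma genes.

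In the cleaner set, 259 of 6980 genes (3.71%) were 2-fold or more higher in its chemokine-low cells and 197 (2.82%) were lower. Stroma genes summed to 977 CPM, against 371 CPM in its chemokine-high cells, erythroid genes to 227 CPM, against 166 CPM, and granulocyte genes to 114 CPM, against 108 CPM. Mast, basophil or eosinophil genes still summed to 1090 CPM, against 105 CPM, and the eosinophil genes PRG2 (750 CPM, against 60.5 CPM), CLC and PRG3 were among its 4 largest folds. Within the 320 cells, 10 cells held 90.3% of the PRG2 UMIs. All 7 stroma genes tested were still 2-fold or more higher in the cleaner set. Its 12 largest folds also included H19, LUM, COL1A1, IGFBP3, PTPRD, ANK3 and KCNQ1OT1. HNRNPLL, an RNA-binding protein, and MOB1B, a kinase activator, ranked 8 and 12 among them, at 3.42-fold and 2.87-fold. Of the UMIs of the 320 cells, 10 cells held 18.0% for HNRNPLL and 22.1% for MOB1B. The part of doublets and of other cells' RNA in the differences between the ends of the ranking was not tested beyond these sets.

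Dividing macrophages of the same library, 1375 cells, had a median of 3097 CPM of the 3 ranked genes. The ends of the ranking were set by these genes, so a level between theirs says little. Pooled, dividing macrophages had 4357 CPM of them, against 5643 CPM in all 962 non-dividing macrophages. The 36 resident type genes summed to 5987 CPM in the chemokine-low cells, against 4238 CPM in dividing and 6091 CPM in chemokine-high macrophages. In the cleaner set, which was filtered on the selecting genes, the order of the ends turned. Chemokine-low cells then had 7268 CPM, against 4679 CPM in dividing and 6122 CPM in chemokine-high macrophages. The non-dividing macrophages between the ends stood highest in both sets, at 6821 CPM by the rule and 7569 CPM in the cleaner set. Among the 320 chemokine-low cells, 179 had no UMI of MKI67 or TOP2A, 84 had 1 and 57 had 2.

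Before day 12 such cells were scarce. The day 7 library (6767 cells) held 0 macrophages by the same rule, which allows a share of up to 0.0443%, and the day 9 library held 64 of 11727 cells, of which 14 were non-dividing. All 14 had a chemokine share at or below the day 12 boundary. The 64 cells had 665 CPM of the 3 ranked genes, against 36.3 CPM in the other cells of day 9; MRC1 stood at 68.8 CPM, CD36 at 325 CPM and MERTK at 51.1 CPM, while LYVE1 (15 UMIs) and FOLR2 (8 UMIs) were barely detected. Each day was 1 library, so days were not tested, and 17 to 24 barcodes were shared by each pair of libraries.

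The bulk libraries played no part in choosing the cells, so the genes were tested there across cultures. In a bulk library, fewer cells of a type and less RNA per cell cannot be told apart. Levels are transcripts-per-million values (TPM) as deposited, and changes are on the log2(TPM + 1) scale from limma with Benjamini-Hochberg adjustment over all genes tested. Of 13131 genes, 37.8% were called between 3D and 2D cultures at day 12, 13% as higher in 3D and 24.7% as lower; scaling the libraries by median ratios moved this split to 2368 higher and 2545 lower genes, and the median change of all genes to -0.04 with that scaling, against -0.21 without it.

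Of 33 resident type genes tested, 16 rose in 3D cultures at day 12, 6 fell and 11 were not called, with a median change of 0.69; their summed level was nevertheless lower in 3D, at 2973 to 3323 TPM, against 3643 to 3933 TPM in 2D. Markers of other cell types moved in the same comparison. All 7 granulocyte and all 9 megakaryocyte genes tested fell, as did 13 of 16 monocyte type genes. So did 4 of 7 mast, basophil or eosinophil and 3 of 9 erythroid genes, while 3 of 10 stroma genes rose and 1 fell. Of all genes tested, 24.7% fell and 13% rose, so the erythroid count was near the general share. The erythroid sum was still lower in 3D, at 27.7 to 1725 TPM, against 3427 to 4406 TPM in 2D. Granulocyte genes summed to 38.3 to 190 TPM in 3D libraries, against 1882 to 3291 TPM in 2D, megakaryocyte genes to 20.6 to 47.7 TPM, against 712 to 1225 TPM, and monocyte type genes to 9284 to 11966 TPM, against 15298 to 17722 TPM. Their part in the resident gene changes was not tested. MERTK had 9.69, 9.35, 8.52 and 12.28 TPM in 3D cultures, against 5.20, 3.35, 1.68 and 5.18 TPM in 2D cultures. The groups did not overlap and MERTK rose by 1.24 ± 0.29 (SE, adjusted p = 0.0103). CD163L1 had 8.69, 4.88, 10.29 and 7.55 TPM in 3D cultures, against 1.19, 1.99, 4.56 and 3.78 TPM in 2D cultures. It rose by 1.25 ± 0.34 (adjusted p = 0.0194 by limma), and without the third 3D library the call was lost (adjusted p = 0.0549). CD36 rose by 1.92 (147 ± 42.3 TPM in 3D and 37.4 ± 5.48 TPM in 2D, SD, n = 4 each; adjusted p = 0.000627 by limma), MRC1 by 1.10 (adjusted p = 0.00125 by limma) and LYVE1 by 0.90 (adjusted p = 0.0101 by limma). Genes that were lower at the chemokine-low end also rose in 3D, with C3AR1 at 1.64 and FOLR2 at 0.99. STAB1 and APOE fell, by 1.61 and 2.92.

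The ranked chemokines were themselves far higher in 3D. CCL3 averaged 2136 ± 151 TPM in 3D cultures and 146 ± 14.5 TPM in 2D cultures (SD, n = 4 each), IL1B averaged 1107 ± 77.2 TPM in 3D and 58.4 ± 5.55 TPM in 2D, and CCL4 averaged 1765 ± 161 TPM in 3D and 86.6 ± 22.6 TPM in 2D. They rose by 3.86, 4.22 and 4.37. Of the 29 other inflammatory genes tested, 26 rose and none fell, beside 13% and 24.7% of all genes. In the 3D bulk libraries the chemokines were thus higher together with MERTK, CD163L1, LYVE1 and CD36.

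**Figure D5:**
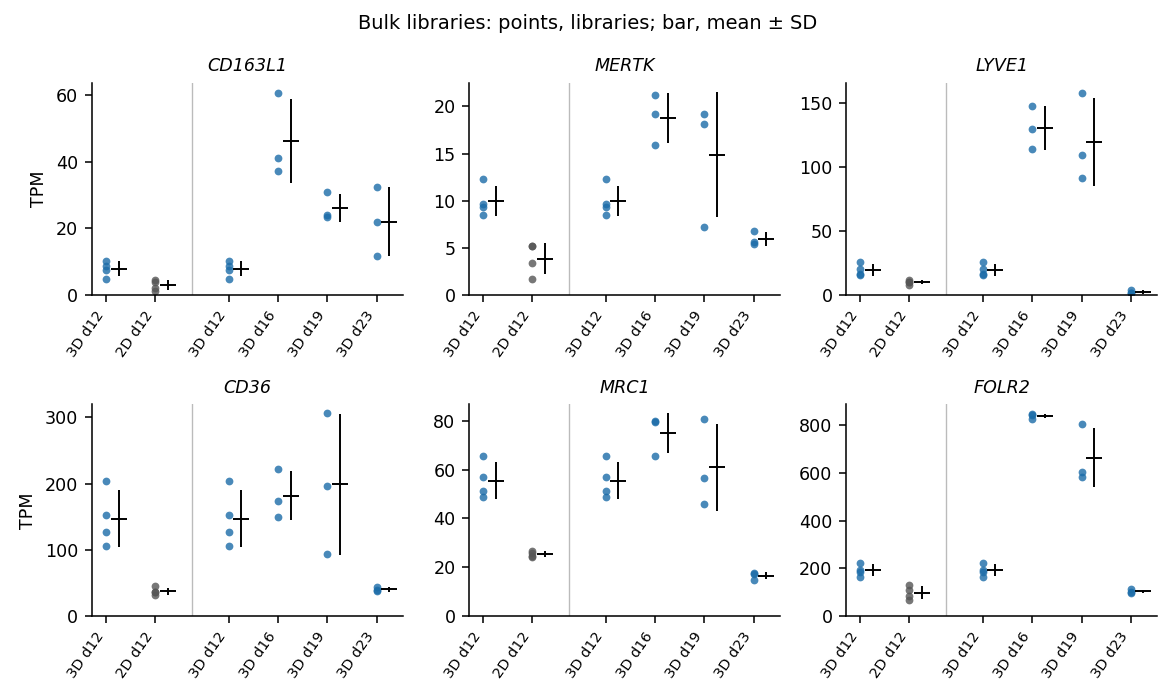
TPM of CD163L1, MERTK, LYVE1, CD36, MRC1 and FOLR2 in each bulk library (points) with the mean and SD beside them; 3D and 2D cultures of day 12 are left of the grey line, and the 3D time course of days 12, 16, 19 and 23 right of it. LYVE1 and FOLR2 are highest at days 16 and 19 and lowest in the time course at day 23, while CD163L1 stays above day 12 throughout.

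Days 16, 19 and 23 were each compared with the same 4 libraries of day 12, so these comparisons share them. At day 16, 26.3% of 12795 genes were called (16% higher and 10.3% lower). At day 19 20.1% were called (10.2% higher and 9.94% lower) and at day 23 36.9% (15% higher and 22% lower). For day 16 the median-ratio scaling turned the split of 2043 higher and 1317 lower genes into 1431 higher and 1790 lower, and moved the median change of all genes to 0.00 with it, against 0.18 without. Of 34 resident genes tested, day 16 showed 24 risen and 2 fallen genes, day 19 showed 17 and 3, and day 23 showed 9 and 13. Division and other cell type genes moved with them: of 20 G2M genes, 20 fell at day 16, 10 at day 19 and 19 at day 23, and of 20 S phase genes 16, 10 and 18 fell. G2M genes summed to 211 to 348 TPM at day 16, 826 to 930 TPM at day 19 and 369 to 445 TPM at day 23, against 1712 to 2168 TPM at day 12. Of 13 monocyte type genes, 11 fell at day 16, 11 at day 19 and 5 at day 23, and 4 of 6 erythroid and 4 of 6 granulocyte genes fell on each of these days. Monocyte type genes summed to 2732 to 2921 TPM at day 16, against 9284 to 11966 TPM at day 12. The part of these changes in those of the resident genes was not tested.

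CD163L1 had 60.65, 40.99 and 37.22 TPM at day 16, 23.95, 30.95 and 23.36 TPM at day 19 and 21.80, 11.71 and 32.43 TPM at day 23, all above the 4.88 to 10.29 TPM of day 12. It rose by 2.43 (adjusted p = 0.000302), 1.64 (adjusted p = 0.00469) and 1.31 (adjusted p = 0.00876) on those days by limma. LYVE1 rose by 2.70 at day 16 and 2.54 at day 19 and fell by 2.79 at day 23, when it stood at 2.10 ± 1.44 TPM, against 19.5 ± 4.43 TPM at day 12 (SD, n = 3 and 4). FOLR2 rose by 2.13 at day 16 and 1.78 at day 19 and fell by 0.87 at day 23. IGF1 rose by 3.14 and 2.94 at days 16 and 19 and was not called at day 23 (-0.86, adjusted p = 0.147 by limma, against 0.0494 without the first library of day 23), and PDGFC rose at all 3 days, by 3.04, 2.19 and 2.22. Levels of TIMD4 and ID3 went the other way. TIMD4 had 33.38 to 77.24 TPM at day 12, 1.55 to 3.8 TPM at days 16 and 19 and 0 TPM at day 23. ID3 had 101.11 to 221.18 TPM at day 12 and 2.93 to 10.89 TPM on the later days.

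MERTK was less clear. It had 15.92, 19.22 and 21.22 TPM at day 16 and rose by 0.85 (adjusted p = 0.0469 by limma), a call that was lost under 14 of 19 other settings, among them without any 1 library of day 16 or day 23 and without replicate 1, 2 or 3 of day 12 (adjusted p of 0.00590 to 0.139 over the 19). At day 19 it had 19.18, 18.19 and 7.25 TPM and was not called (0.44, adjusted p = 0.327 by limma); without the third library of that day the change was 0.86 (adjusted p = 0.0166 by limma). At day 23 its change was -0.66 (adjusted p = 0.0949 by limma), and that call too was gained (adjusted p = 0.0155) when the third library of day 19 was left out of the shared fit. CD36 was not called at day 16 (0.32) or day 19 (0.32) and fell by 1.79 at day 23, and MRC1 was not called at days 16 and 19 and fell by 1.68 at day 23. P2RY12 was called in none of the 4 bulk comparisons, at 0.00 to 7.47 TPM in the single libraries, but without the first 3D library of day 12 it was called for 3D against 2D (1.70, adjusted p = 0.0257 by limma) and for day 23 (-1.82, adjusted p = 0.0239).

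None of the ranked genes was called higher after day 12. IL1B fell by 0.998 at day 16, 1.95 at day 19 and 1.22 at day 23, CCL4 fell by 0.66 at day 16 and 1.52 at day 19 and was not called at day 23 (-0.41, adjusted p = 0.0819 by limma, against 0.0450 without the filter on low values), and CCL3 fell by 0.80 at day 19, with no call at day 16 (0.10) or day 23 (0.31). The CCL4 call at day 16 was lost without the first library of that day (adjusted p = 0.0694 by limma). Of 31 other inflammatory genes, 12 fell and 5 rose at day 16, 19 fell and 2 rose at day 19, and 18 fell and 5 rose at day 23. Of 22 immediate early genes, day 16 had 4 fallen and 5 risen, day 19 had 16 fallen and 1 risen, and day 23 had 12 fallen and 1 risen. Of all genes tested, 10.3% fell and 16% rose at day 16, 9.94% and 10.2% at day 19, and 22% and 15% at day 23. The other inflammatory genes rose at about the general share at days 16 and 23. The immediate early counts of day 16 were not far above the general shares.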

How the data were processed

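The 3 single-cell files hold UMI counts per gene and cell, with GRCh38 and Cell Ranger 7.1.0 (days 7 and 9) or 7.0.0 (day 12) per the file headers and the labels; filtered barcodes were deposited. The bulk table holds TPM as deposited by the authors, from SMART-seq2 libraries per the labels' protocols; the submitters' processing notes name Trim Galore 0.4.4, HISAT2 and HTSeq 0.11.1 with no role, and the sources used here do not state how TPM were computed. TPM keep no depth, so the depth of the bulk libraries is unknown. Cells were filtered, selected and ranked with Python 3.11.15, and counts were pooled per population; with 1 library there was no test. Scrublet (scanpy 1.11.5, expected rate 0.06) marked doublets, which were kept in the main values. A gene entered a comparison at 20 CPM or more in either population, and a 0 was set to 3 counts for folds. Bulk values were tested as log2(TPM + 1) with limma 3.58.1 in R 4.3.3, for genes with a mean of at least 1 TPM, in 1 fit of 8 libraries (3D against 2D) and 1 of 13 (days), at an adjusted p of 0.05. On simulated data the fit recovered 28% of genes changed by 1 and 75% of those changed by 2 on the log2 scale among 13131 genes (3D against 2D), and the fold step recovered its changed genes. The members, gene lists and comparisons were chosen with earlier results of these data known. Genes were named from the 12 largest folds each way at 50 CPM or more, the selecting, label and resident genes, and up to 4 abundant genes of each other list; MARCO, S100A8, HNRNPLL and MOB1B were named after their values were seen. ATAC and ChIP libraries, and the bulk libraries with serum, SP6A, SP14 or E. coli in their labels, were not used in the comparisons.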

Additional observations from a re-analysis of the deposited data

How the results depend on the processing

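With a minimum of 1000 CPM of the selecting genes alone, 384 genes were 2-fold or more higher in chemokine-low than in chemokine-high macrophages, with doublets left out as well 259, and at 2000 CPM without doublets 299, against 582 by the rule. A minimum of 50 CPM gave 679 higher and 740 lower genes against non-macrophage cells and 174 higher genes against chemokine-high cells. With 3 counts in place of a CPM minimum the counts were 7469 higher and 5066 lower against non-macrophage cells and 3944 higher and 828 lower against chemokine-high cells, since many more low genes entered. Both minimums with doublets left out were chosen after seeing the data. The other single-cell settings moved these counts by less than 1.5 times. In bulk, 1 fit of all 28 3D libraries called 2219 genes at day 16 and 1575 at day 19, and array weights called 3928 at day 19; the cause was not tested. Leaving out 1 library gave 4012 to 4580 genes for 3D against 2D, 2477 to 3541 at day 16, 1855 to 2578 at day 19 and 3986 to 4898 at day 23.

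Same-numbered libraries did not deviate together (correlations of -0.12 to 0.04), so the numbers were not taken as pairs. With the replicate block, limma called 4110, 2693, 1981 and 4031 genes in the 4 bulk comparisons, each within 1.5 times of the count without it. Of 76 bulk results for 19 followed genes, 58 stayed on their side of the threshold under every alternative run, and none changed direction with a call. C1QC had 236 TPM in the fourth 3D library of day 12, against 1725 to 2069 TPM in the others; without that library its change for 3D against 2D was 1.18 (adjusted p = 0.00219 by limma), against 0.42 (adjusted p = 0.635) with it.

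Each single-cell population is 1 library, so counting intervals do not cover differences between cultures. Genes at a few UMIs, such as CD209 and CD5L, were below what this depth resolves.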
